A study of Mus musculus with 6 samples.

Results

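Alternative activation is the state that mouse macrophages take when interleukin-4 or interleukin-13 binds a receptor containing the interleukin-4 receptor alpha chain, which activates the transcription factor STAT6. In mice its best known products are the chitinase-like protein Chi3l3 (also called Ym1), which resembles chitinases but does not cut chitin, and the resistin-like protein Retnla (also called Fizz1). The scavenger receptors CD163 and stabilin-1 are used as markers of the same state, and EGR2 is a transcription factor of it. Chitinase-like proteins are also made by neutrophils and their precursors, so the cell type in which these genes are measured matters.

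The 7 genes described here were chosen by name: the chitinase-like genes Chi3l1 and Chi3l3, the secreted product Retnla, the scavenger receptors Cd163 and Stab1, the transcription factor Egr2 and the receptor chain Il4ra. Earlier results of these data were known when they were chosen. All 7 were on the array, among 34797 gene names in all. They were measured by 8 gene probes, of which Il4ra had 2 and every other gene 1, each printed once per array. Each probe carried a RefSeq transcript accession that led to the same gene, with Chi3l1 and Chi3l3 now named Chil1 and Chil3. Not every probe was above background everywhere: Retnla and Cd163 were well above background on 4 of the 6 arrays and the other probes on all 6.

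The study compared C57BL/6 mice lacking TIARP (TIARP-/-, KO) with wild-type mice (TIARP+/+, WT). TIARP is the product of Steap4, a membrane protein of the metalloreductase family that is induced by TNFα. The 6 groups, with 1 array each, were KO and WT peritoneal macrophages with no TNFα in their label, KO and WT peritoneal macrophages given TNFα for 24 h, and KO and WT neutrophils taken from spleen by magnetic selection for Ly6G. Macrophages had been drawn into the peritoneum with thioglycollate for 3 days. The labels number 3 mice in each of the 6 groups, with the same numbers for macrophages with and without TNFα. They do not say whether RNA was pooled or whether equal numbers mean the same mice. Nor do they say whether the macrophages without TNFα were cultured for as long, so the effect of TNFα and that of culture cannot be told apart.

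With 1 array per group there was no replicate, and no test was possible. Levels are log2 of the processed spot signal minus the 75th percentile of that array's gene probes, called scaled levels below, so a scaled level of 0 is that percentile. Levels of different probes were not set against each other as abundance, since probes differ in how well they bind. The summed levels of marker lists add levels, taken off the log2 scale, over different probes. The brightest probes therefore weigh most in those sums. The error given is the scanner software's technical error. Where both arrays cleared the background mark, it came to between 0.20 and 0.23 on the log2 scale for the difference between 2 arrays, apart from Cd163 under TNFα (0.34), and it says nothing of how much mice differ. A gene was called higher or lower when its difference reached 1 on the log2 scale, a fold of 2, with the probe well above background on the brighter array. If the probe did not clear the background mark on the dimmer array, the fold is a lower bound, written "at least". The denominator of that bound is either the dim probe's own signal or the lowest signal on its array that cleared the mark, whichever is larger.

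Some facts of the arrays bear on what follows. Steap4 itself had a KO minus WT log2 difference of -0.81 in macrophages, -1.59 in TNFα-treated macrophages and -0.39 in neutrophils, and its 1 probe fell below the background mark only in KO macrophages with TNFα. The scaled level of that probe in WT macrophages was -1.49 without TNFα and -3.13 with it. In KO macrophages it was -2.30 and -4.72. On these arrays it was thus lower, not higher, with TNFα. Whether that probe lies in the deleted part is not stated in the sources used here, so it is a weak check of the labels. The macrophage list (10 genes, among them Csf1r and Emr1) was well above background throughout on the 4 macrophage arrays, with a summed scaled linear level between 1132 and 1340, against 269 in KO neutrophils and 500.4 in WT neutrophils. Mature neutrophil markers (8 genes) were measured on every array and summed to 2553 in KO neutrophils and 2129 in WT neutrophils. The neutrophil samples also held B cell markers, with a summed level of 505 in KO and 538 in WT, against at most 17.9 in macrophages. All values come from bulk RNA, in which more cells of a type and more RNA per cell cannot be told apart.

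Among the regulatory sequences, the promoters of 3 members are shown because these genes parted in the knockout macrophages: Chi3l1 and Chi3l3 were higher there, and Retnla, which shares the alternative activation label, was not called. The sequences are those of RefSeq (GRCm38.p6), from 250 bases before to 50 bases after the transcript start, written 5′ to 3′ on the gene's strand. Capitals mark matches to TTCNNNNGAA, the spacing preferred by STAT6, or to TTCNNNGAA, the spacing of other STAT proteins. Both motifs read the same on either strand.
Chi3l1 (Chil1), chr1:134181906-134182205, plus strand: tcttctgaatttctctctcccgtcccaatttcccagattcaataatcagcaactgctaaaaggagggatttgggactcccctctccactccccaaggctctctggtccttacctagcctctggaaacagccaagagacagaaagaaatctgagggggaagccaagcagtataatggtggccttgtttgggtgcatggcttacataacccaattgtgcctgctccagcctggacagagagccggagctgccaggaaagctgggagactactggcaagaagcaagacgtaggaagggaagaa
Chi3l3 (Chil3), chr3:106167515-106167814, minus strand: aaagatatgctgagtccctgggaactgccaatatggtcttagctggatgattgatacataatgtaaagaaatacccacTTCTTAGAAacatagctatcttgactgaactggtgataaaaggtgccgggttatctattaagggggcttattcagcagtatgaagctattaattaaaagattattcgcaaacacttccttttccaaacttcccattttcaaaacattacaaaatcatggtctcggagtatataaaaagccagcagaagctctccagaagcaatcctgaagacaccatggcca
Retnla, chr16:48842359-48842658, plus strand: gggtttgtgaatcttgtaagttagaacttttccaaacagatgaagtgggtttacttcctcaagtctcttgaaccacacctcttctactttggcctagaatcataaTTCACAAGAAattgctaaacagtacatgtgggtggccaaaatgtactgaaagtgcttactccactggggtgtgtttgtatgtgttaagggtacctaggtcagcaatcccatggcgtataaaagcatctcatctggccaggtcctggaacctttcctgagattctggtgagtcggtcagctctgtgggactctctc

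The Retnla window held 1 match of the STAT6 spacing, beginning 145 bases before the start, and the Chi3l3 window held 1 match of the other STAT spacing, beginning 172 bases before it. The Chi3l1 window held neither. The windows of Cd163, Stab1 and Il4ra and the 5 annotated starts of Egr2 held neither motif and neither of the EGR-type motifs GCGTGGGCG and GCGGGGGCG. Of 32851 RefSeq promoters of this length, 6.95% held the STAT6 spacing, 8.30% the other STAT spacing, 0.612% the first EGR-type motif and 2.91% the other, on either strand. A match is a string of letters in these windows, and no binding was measured.

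**Figure D1:**
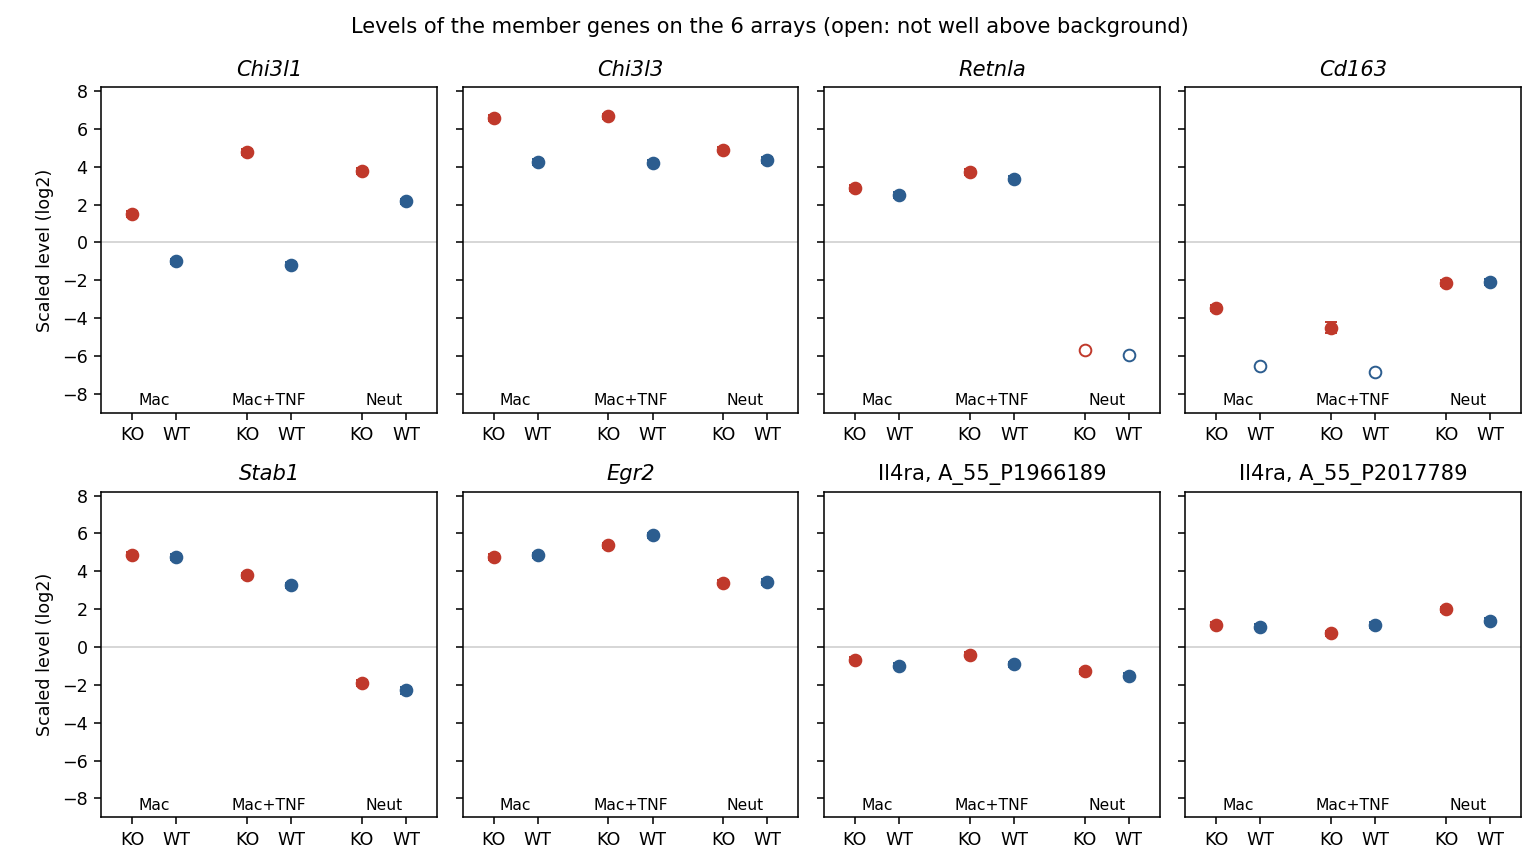
Scaled levels (log2, vertical axis) of the 8 probes of the 7 genes on the 6 arrays, with KO in red left of WT in blue for macrophages (Mac), TNFα-treated macrophages (Mac+TNF) and splenic neutrophils (Neut). Bars are the technical error, often smaller than the point, and open points were not well above background. Chi3l1 spans the widest range of the probes detected on all arrays apart from Stab1, and Retnla is near background only in neutrophils.

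Knockout macrophages without TNFα had more chitinase-like RNA than wild-type macrophages. Chi3l1 was 5.65-fold and Chi3l3 5.03-fold higher, Cd163 cleared the background mark only on the knockout array of the pair, and Retnla, Stab1, Egr2 and Il4ra differed by 0.37 or less on the log2 scale. Thus 3 of the 7 genes were called higher and 0 lower, where 4.08% of the 24673 gene names compared were called higher and 1.56% lower. The members' median difference was 0.37, against 0.07 over all genes compared.

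Chi3l1 encodes a secreted glycoprotein that binds chitin and is associated with inflamed tissue. Its probe (mm9, chromosome 1, bases 136086448 to 136086507) read a processed signal of 1159.8 in KO macrophages and 245 in WT macrophages. On the scaled level that was 1.50 in KO and -0.997 in WT, a log2 difference of 2.50. Among the 23132 genes measured on both arrays, it ranked 54th from the top. The middle 90% of those genes lay between -0.56 and 0.81, and Chi3l1 lay well beyond that range.

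Chi3l3, a crystal-forming secreted protein abundant in activated mouse macrophages, was bright on all arrays (probe at mm9 chromosome 3, bases 105950485 to 105950544). Its signal was 39164 in KO macrophages and 9307 in WT macrophages, with scaled levels of 6.58 and 4.25. The log2 difference was 2.33, ranking 74th. None of the probes was saturated, so the high KO value was not capped.

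Cd163, the receptor that takes up haemoglobin bound to haptoglobin, was dim (probe at mm9 chromosome 6, bases 124270436 to 124270495). Its signal was 37.1 in KO macrophages and 5.21 in WT macrophages, where it was not well above background. The fold was therefore at least 4.42. This call rested on the background correction: with a normexp correction of the raw spots the log2 difference was 0.75, short of the threshold.

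The remaining members did not reach 2-fold. Retnla, a small secreted protein of the resistin family, had scaled levels of 2.87 in KO and 2.50 in WT, a log2 difference of 0.37. Stab1, which encodes stabilin-1, had 4.88 in KO and 4.75 in WT, a difference of 0.13. Egr2 had 4.75 in KO and 4.84 in WT, a difference of -0.09. For Il4ra the brighter probe gave 1.18 in KO and 1.08 in WT, a difference of 0.09, and the dimmer one gave 0.32. All of these lay inside the middle 90% of genes.

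With TNFα for 24 h the same 3 genes were called higher in knockout macrophages, and Chi3l1 had the largest increase among genes measured on both arrays. Of the 7 members 3 were higher and 0 lower, where 7.38% of 23927 gene names were higher and 2.66% lower. The members' median was 0.53, against 0.07 over all genes compared. The share called over all genes was larger in this pair than in the pair without TNFα.

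Chi3l1 had a signal of 9214 in TNFα-treated KO macrophages and 191 in TNFα-treated WT macrophages. Its scaled levels were 4.77 in KO and -1.18 in WT, and the log2 difference of 5.95 (61.7-fold) ranked 1st of 22040. That order leaves out genes known only by a bound, among which the scavenger receptor gene Stab2 was at least 101-fold higher. Chi3l3 had 34086 in KO and 8033 in WT, with scaled levels of 6.66 and 4.22, a difference of 2.44 (5.43-fold) that ranked 147th. Cd163 read 14.8 in KO and 3.80 in WT, the WT value not well above background, which made the fold at least 3.46. With normexp its difference was 0.52.

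The other members again did not reach 2-fold under TNFα. Retnla had scaled levels of 3.71 in KO and 3.38 in WT, a difference of 0.34, and Stab1 had 3.79 in KO and 3.26 in WT, a difference of 0.53. Egr2 had 5.37 in KO and 5.90 in WT, a difference of -0.53. The 2 probes of Il4ra disagreed in sign: the brighter probe (mm9 chromosome 7, bases 132722922 to 132722981) gave -0.44, with 0.72 in KO and 1.15 in WT, and the other (bases 132712550 to 132712609) gave 0.52, with -0.40 in KO and -0.92 in WT. No direction is given for Il4ra in this pair for that reason.

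**Figure D2:**
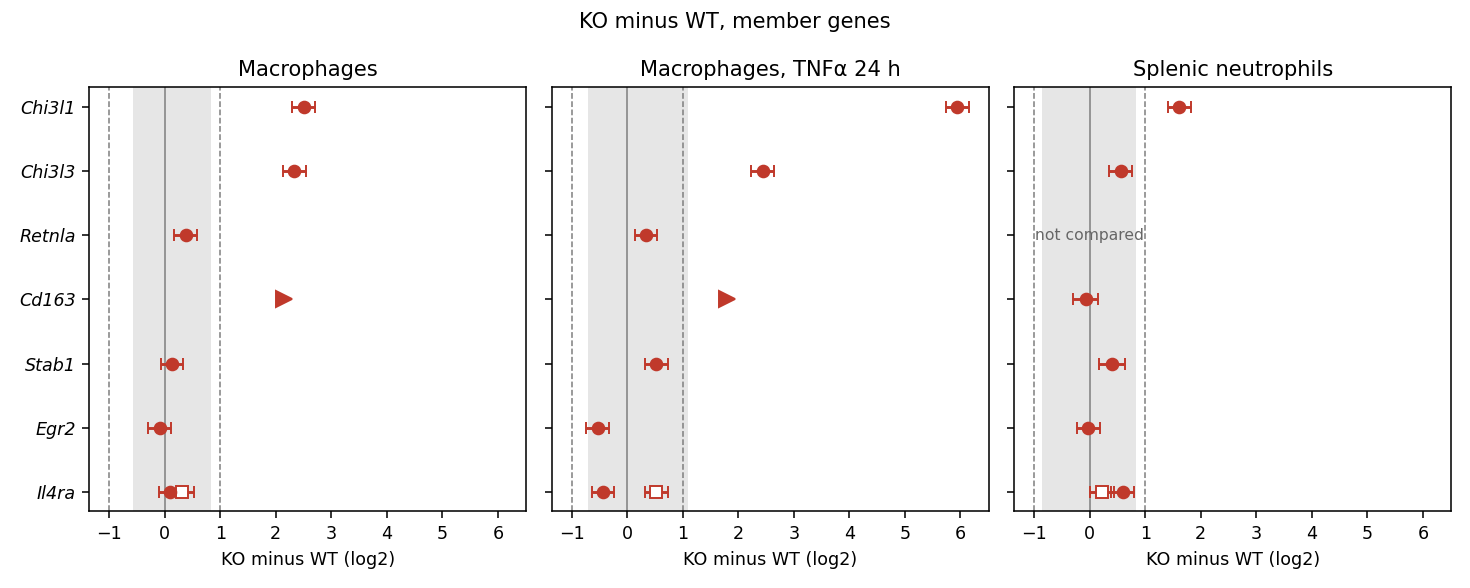
KO minus WT differences (log2, horizontal axis) of the 7 genes in macrophages, TNFα-treated macrophages and splenic neutrophils. Bars are the technical error, triangles are lower bounds for Cd163, the open square is the dimmer Il4ra probe, the grey band holds the middle 90% of all genes measured on both arrays and dashed lines mark 2-fold. Chi3l1 lies right of the 2-fold line in all 3 pairs, at 2.50, 5.95 and 1.61.

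In splenic neutrophils, Chi3l1 was the only member called, and it was again higher in the knockout. Of the 6 members that could be compared 1 was higher and 0 lower, where 5.02% of 23988 gene names were higher and 4.74% lower. Chi3l1 read 3081 in KO neutrophils and 1039.5 in WT neutrophils, with scaled levels of 3.78 and 2.17. The log2 difference was 1.61 (3.06-fold), ranking 159th of 22071 genes.

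Chi3l3 had scaled levels of 4.91 in KO neutrophils and 4.35 in WT neutrophils, a difference of 0.56 that did not reach 2-fold. Stab1 differed by 0.40 with an error of 0.23, at -1.89 in KO and -2.29 in WT. Cd163 differed by -0.07 with an error of 0.23, with signals of 49.8 in KO and 53.9 in WT. Egr2 differed by -0.02, at 3.40 in KO and 3.42 in WT. Il4ra differed by 0.60 at its brighter probe and 0.22 at the other, both short of 2-fold. Retnla did not clear the background mark in neutrophils (signals of 4.36 in KO and 3.78 in WT), so it was not compared.

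Several neutrophil marker genes differed with genotype, on the macrophage arrays and on the neutrophil arrays. Of 8 mature neutrophil markers, 5 were higher in KO macrophages and 4 in TNFα-treated KO macrophages, and none was lower. Over all gene names, 4.08% were higher and 1.56% lower without TNFα, and 7.38% and 2.66% with it. The summed scaled linear level of these markers was 420 in KO against 149 in WT without TNFα, and 473 in KO against 205 in WT with it. S100a9, a calcium-binding protein of neutrophils, had scaled levels of 7.52 in KO and 2.60 in WT macrophages, against 10.28 in KO and 10.23 in WT neutrophils. Cxcr2, a chemokine receptor, had -0.14 in KO and -4.02 in WT macrophages. In the neutrophil pair 2 of the 8 markers were higher in KO (Cxcr2, 1.63, and Mxd1, 1.53) and 0 lower. There 5.02% of all names were higher and 4.74% lower. The list's median in that pair was 0.75, against -0.01 over all genes compared.

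Neutrophil precursor markers did not move as one. Of the 7 measured, 3 were higher in KO macrophages in either condition (Prtn3, Ltf and Lcn2), and 0 were lower. For all marker lists of this paragraph, the shares over all names were 4.08% higher and 1.56% lower without TNFα, and 7.38% and 2.66% with it. The precursor list's medians were 0.35 and 0.67. Its sum was 25.2 in KO and 30.6 in WT without TNFα, and 34.4 in KO and 37.9 in WT with it. That sum came mainly from the brightest probe, Elane, at 4.21 in KO and 4.86 in WT without TNFα, and 4.27 and 5.06 with it. The granule gene Ngp was not well above background on any macrophage array. B cell markers were higher in KO macrophages as well, 4 of 5 without TNFα and 5 of 5 with it, with sums of 17.9 in KO and 4.79 in WT, and 12.9 in KO and 3.20 in WT under TNFα, and the B cell factor gene Pax5 was not well above background on those arrays. Of the mast cell and basophil markers 3 of 4 were higher in KO without TNFα and 2 of 4 with it, and of the T cell markers 2 of 5 in either condition. Mesothelial and fibroblast markers ran the other way, 3 of 6 lower without TNFα and 2 of 6 with it, and summed to 136 in KO and 245 in WT without TNFα, and 114 in KO and 239 in WT with it. Of 10 macrophage markers, 0 were called without TNFα and 1 was higher with it (Fcgr1, 2.14), and the list's medians were 0.34 and 0.56, against 0.07 over all genes in either pair. Resident peritoneal macrophage markers (6 genes) summed to 182 in KO and 135 in WT without TNFα, where 1 was higher in KO (Timd4, 1.29). Most of that sum came from the probe of Cd5l, at scaled levels of 7.32 in KO and 6.74 in WT. The list's median difference was -0.11. With TNFα the resident markers summed to 29.5 in KO and 44.5 in WT, with a median difference of -0.69. There 2 were lower in KO (Gata6, -1.30, and Vsig4, -1.14).

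The members stood differently against the neutrophil arrays. Chi3l3 was at a higher level in KO macrophages than in either neutrophil sample, by 1.67 over KO neutrophils and 2.23 over WT neutrophils without TNFα, and by 1.75 over KO and 2.31 over WT neutrophils with it. Chi3l1 in KO macrophages without TNFα was below both neutrophil arrays, with a difference of -2.28 against KO and -0.67 against WT neutrophils. With TNFα it was above both, by 0.99 over KO and 2.60 over WT neutrophils. Cd163 in KO macrophages was below both neutrophil arrays in either condition. The part of neutrophils, B cells or other cells in the differences of Chi3l1, Chi3l3 and Cd163 was not tested.

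Chi3l1 was the member whose TNFα response differed by 2-fold or more between genotypes. In KO macrophages Chi3l1 was higher with TNFα, at a scaled level of 4.77 against 1.50 without it, a log2 difference of 3.27 (9.63-fold) that ranked 55th of 22224 genes. In WT macrophages it was -1.18 with TNFα and -0.997 without, a difference of -0.18 that was smaller than the technical error. The difference between the responses was 3.45 (error 0.29, 10.9-fold), 4th of 21751 genes well above background on all 4 macrophage arrays. Of the 6 members that could be compared in this way 1 was higher in KO and 0 lower, where 1.49% of genes were higher and 0.621% lower.

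Chi3l3 had no response to TNFα beyond the technical error in either genotype, with 0.08 in KO and -0.03 in WT, so its knockout difference was of like size with and without TNFα. The difference between the responses was 0.11 (error 0.29). Chi3l1 and Chi3l3 therefore parted under TNFα in KO macrophages, although their KO minus WT differences without TNFα were 2.50 and 2.33.

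Stab1 was lower with TNFα in both genotypes. It had 3.79 with TNFα and 4.88 without in KO macrophages, a log2 difference of -1.09 (2.14-fold lower), and 3.26 with TNFα and 4.75 without in WT macrophages, a difference of -1.49 (2.81-fold lower). Retnla differed by 0.84 in KO and 0.88 in WT, both short of 2-fold. Egr2 was higher with TNFα in WT macrophages by 1.06 (2.09-fold) and differed by 0.62 in KO macrophages. Its WT call fell short under quantile normalization, at 0.91. The differences between the responses were 0.40 for Stab1, -0.04 for Retnla and -0.44 for Egr2, none reaching the threshold.

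In KO macrophages Cd163 was lower with TNFα, at a log2 difference of -1.05 with an error of 0.34, so the call lay within its error of the threshold, and it was -0.13 with normexp. In WT macrophages Cd163 was not well above background in either state and was not compared. Il4ra differed by -0.46 and 0.26 at its 2 probes in KO and by 0.07 and 0.06 in WT. In KO macrophages 1 of 7 members was higher and 2 lower with TNFα, where 4.43% of 24068 gene names were higher and 3.71% lower. In WT macrophages 1 of 6 was higher and 1 lower, where 4.4% of 24645 were higher and 5.98% lower.

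**Figure D3:**
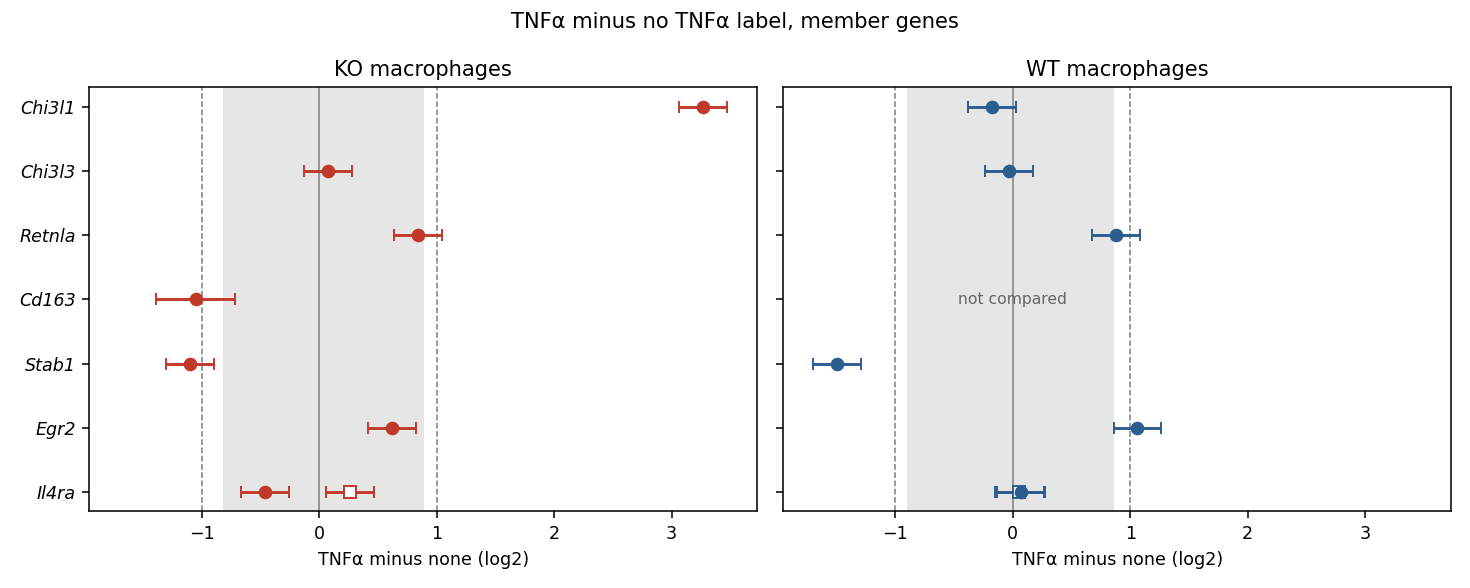
TNFα minus no-TNFα differences (log2, horizontal axis) of the 7 genes in KO macrophages (left) and WT macrophages (right). Bars are the technical error, the open square is the dimmer Il4ra probe, the grey band holds the middle 90% of all genes and dashed lines mark 2-fold. Chi3l1 is at 3.27 in KO and -0.18 in WT, while Stab1 is left of the line in both.

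Neutrophils and macrophages carried different members. Stab1 and Retnla belonged to the macrophage arrays: Stab1 was 109-fold lower in KO neutrophils than in KO macrophages and 132-fold lower in WT neutrophils than in WT macrophages, and Retnla was at least 156-fold lower in KO and at least 216-fold lower in WT. Egr2 was lower in neutrophils, with log2 differences of -1.35 in KO and -1.41 in WT. Chi3l1 was higher in neutrophils, by 2.28 (4.86-fold) in KO and 3.17 (8.97-fold) in WT. Cd163 was 2.46-fold higher in KO neutrophils and at least 11.4-fold higher in WT neutrophils than in the macrophages of the same genotype. In KO that call fell short with normexp (0.87) and with quantile normalization (0.98).

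Chi3l3 was the member whose cell type difference was called in 1 genotype only. It was 3.19-fold lower in KO neutrophils than in KO macrophages (log2 difference -1.67) and differed by 0.10 between WT neutrophils and WT macrophages. The Il4ra probes disagreed in sign again, with 0.82 and -0.63 in KO and 0.31 and -0.53 in WT. In KO 2 of 7 members were higher in neutrophils and 4 lower, where 25.1% of 25194 gene names were higher and 19.4% lower. In WT 2 of 7 were higher and 3 lower, where 25.9% of 25586 were higher and 18.8% lower. Neutrophils and macrophages came from different organs and isolation steps, which cannot be told apart from the cell type.

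By level, the 6 arrays ordered differently for each gene. Chi3l1 ran highest in TNFα-treated KO macrophages, then in KO neutrophils, WT neutrophils and KO macrophages, and lowest in the 2 WT macrophage arrays, which lay within 2 technical errors of each other. Chi3l3 had the 2 KO macrophage arrays on top, within 2 errors of each other, then KO neutrophils, and then WT neutrophils and the 2 WT macrophage arrays, whose neighbours were also within 2 errors. Egr2 ran highest in TNFα-treated WT macrophages, then TNFα-treated KO macrophages, with WT and KO macrophages next and within 2 errors of each other, and the 2 neutrophil arrays last and also within 2 errors. For the dimmer Il4ra probe, no pair of neighbours differed by more than 2 errors, and its whole range was 2.16-fold.

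Among 13844 other genes with a symbol and a probe well above background on at least 3 arrays, the profile nearest to Chi3l3 was that of Chi3l4, its close paralog on chromosome 3. After each profile was centred on its own mean over the 6 arrays, the root mean square difference of the 2 was 0.08 on the log2 scale, whereas the next gene, Hddc3, was at 0.41. Chi3l4 had scaled levels of -0.83 in KO and -2.94 in WT macrophages, -0.67 in KO and -3.07 in WT macrophages with TNFα, and -2.29 in KO and -2.96 in WT neutrophils. Its knockout differences of 2.11 and 2.41 in macrophages were therefore close to those of Chi3l3. The 2 probes, both 60 bases long, lie apart (the Chi3l4 probe at mm9 chromosome 3, bases 106006584 to 106006643) and shared at best 20 of 54 aligned bases without gaps. Whether each probe also binds the RNA of the other gene was not tested, and the values of both are uncertain to that extent.

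**Figure D4:**
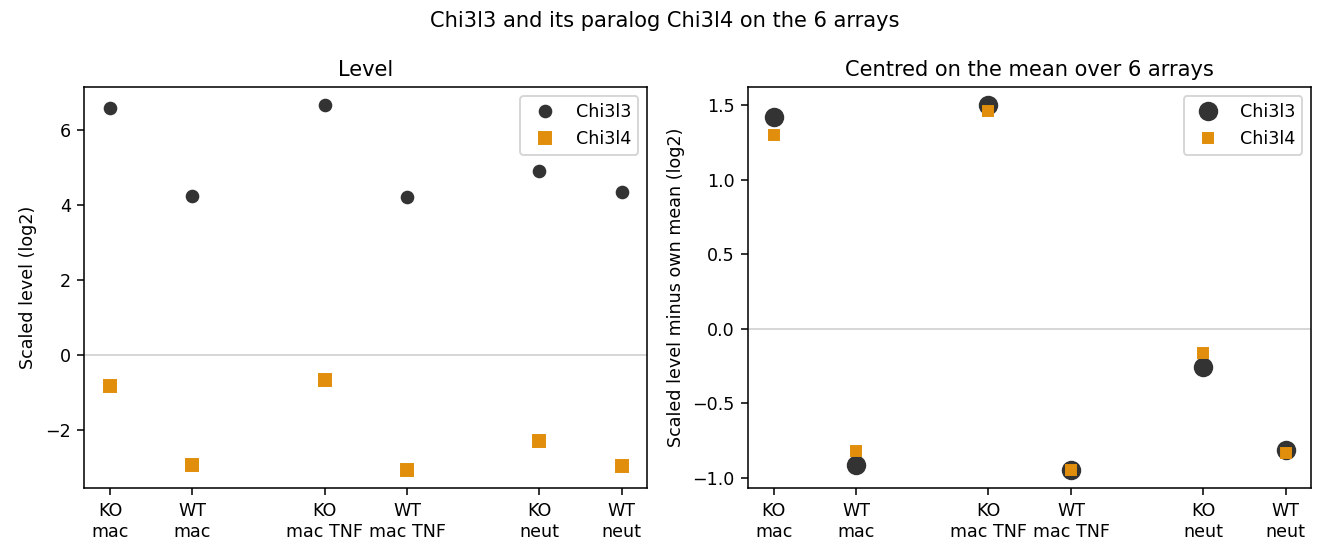
Scaled levels (log2) of Chi3l3 and Chi3l4 on the 6 arrays, as measured (left) and centred on each gene's own mean (right). KO stands left of WT within each pair. The centred points nearly coincide on every array, with a root mean square difference of 0.08, while the left panel compares 2 probes and so shows no order of abundance.

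Other members had nearest profiles of their own. For Chi3l1 no gene came close: the nearest, Vmn1r186, differed by 0.93, and the next were Oxct2b (0.97) and Slc32a1 (0.99). Retnla lay nearest to the lysosomal protease gene Ctsk (0.16) and to Oit3 (0.17), and Stab1 to Fam20a (0.15). Egr2 lay nearest to Pgap2 (0.13). The brighter Il4ra probe lay nearest to Cd80 (0.08), which encodes a costimulatory ligand. The dimmer Il4ra probe, which ordered the arrays differently, was not set against other genes. Cd163 lay nearest to Stfa2 (0.42), a stefin gene. These likenesses rest on 6 arrays that share the contrast between macrophages and neutrophils. Retnla did not clear the background mark on the neutrophil arrays, nor Cd163 on the WT macrophage arrays. Their likenesses therefore rest in part on values near background.

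The other alternative activation genes gave calls in both directions. Of 16, 4 were called higher and 0 lower in KO macrophages, where 4.08% of all gene names were higher and 1.56% lower: the lectin receptor Clec10a (log2 difference 2.14), the chemokine Ccl24 (1.69), the transcription factor Irf4 (1.17) and the lipoxygenase Alox15 (1.09). With TNFα 3 were higher and 0 lower, where the shares over all names were 7.38% and 2.66%: the arginine-splitting enzyme Arg1 (1.71), Clec10a (1.54) and the chemokine Ccl17 (1.03). The mannose receptor Mrc1 differed by -0.02 without and -0.10 with TNFα. In neutrophils 0 of 13 were higher and 3 lower, where the shares were 5.02% and 4.74%, with Ccl24 at -2.68, Mrc1 at -1.30 and Pparg at -1.17. The list's medians were 0.27, 0.44 and -0.13, against 0.07, 0.07 and -0.01 over all genes.

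In that same neutrophil pair, 7 of 10 macrophage markers and 4 of 6 eosinophil markers were lower in KO and 1 eosinophil marker was higher (Siglec5, 1.57), where 4.74% of all names were lower and 5.02% higher, with summed levels of 269 in KO and 500.4 in WT for macrophage genes and 24.5 in KO and 58.5 in WT for eosinophil genes. The part of those cells in the lower values of Ccl24, Mrc1 and Pparg was not tested. On the macrophage arrays 0 of 5 eosinophil markers were called without TNFα, and with TNFα 2 of 6 were higher in KO (Ear1, 2.04, and Ear2, 1.27) and 1 was lower, Prg2, by at least 2.41-fold. The shares over all names in those pairs were 4.08% higher and 1.56% lower without TNFα, and 7.38% and 2.66% with it. The eosinophil granule gene Epx did not clear the background mark on any of the 6 arrays, neutrophils included.

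TNFα split this list. In KO macrophages 4 of 16 were higher with TNFα and 4 lower, and in WT macrophages 5 were higher and 4 lower. Over all names, 4.43% were higher and 3.71% lower in KO, and 4.4% higher and 5.98% lower in WT. The chemokine Ccl17 was higher by 4.03 in KO and 3.46 in WT, and Ccl22 by at least 14.7-fold in KO and by 3.95 in WT. Clec10a was lower (-3.22 in KO and -2.61 in WT), as was Mrc1 (-2.19 in KO and -2.11 in WT). Between the responses, Arg1 was higher in KO by 1.02, while Alox15 (-1.96) and Ccl24 (-1.26) were lower, the 3 called of 15 compared. Over all genes compared in this way, 1.49% were higher and 0.621% lower. Arg1 itself was lower with TNFα in WT (-1.55) and differed by -0.53 in KO.

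Beside Chi3l1, Chi3l3 and Retnla, the chitinase and resistin family lists each had 1 gene higher and 0 lower in each genotype pair. Of the 7 other chitinase family genes on the array, 5 could be compared in macrophages and Chi3l4 was the 1 called, with and without TNFα. Over all names, 4.08% were higher and 1.56% lower without TNFα, and 7.38% and 2.66% with it. In neutrophils Chi3l7 was the 1 of 6 called, at 1.21, where 5.02% of all names were higher and 4.74% lower. The active chitinase Chit1 was not well above background on any array. Of the 3 other resistin family genes, 2 could be compared in macrophages, and resistin itself (Retn) was the 1 called there. It was higher in KO macrophages by 1.31 without and 1.47 with TNFα, and higher with TNFα by 1.98 in KO and 1.82 in WT. For TNFα, 4.43% of all names were higher and 3.71% lower in KO, and 4.4% and 5.98% in WT. Retn was also higher in neutrophils than in macrophages, by 5.30 in KO and 5.71 in WT. All 3 of these resistin family genes were higher in neutrophils in both genotypes. Of 6 other chitinase family genes compared, 3 were higher and 3 lower in KO neutrophils, and 3 higher and 2 lower in WT. Between these cell types 25.1% of all names were higher and 19.4% lower in KO, and 25.9% and 18.8% in WT. Retnlb was 1.42 higher in KO than in WT neutrophils, the 1 called of 3 in that pair. Retnlg, at 0.47 and -0.33 in the macrophage pairs, was not called for genotype.

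The interleukin-4 and interleukin-13 signalling list (14 genes) gave no call between genotypes: 0 of 13 in macrophages, 0 of 13 with TNFα and 0 of 12 in neutrophils. With 4.08% higher and 1.56% lower over all names in macrophages, 7.38% and 2.66% with TNFα and 5.02% and 4.74% in neutrophils, a count of 0 in a list of this length is near the shares over all names. Stat6, the transcription factor of the pathway, differed by 0.19, 0.15 and 0.52 in these pairs. Il13 was not well above background on any array. Il4 was well above background on the 4 macrophage arrays and was lower in KO, short of 2-fold. Its scaled levels were -1.91 in KO and -0.92 in WT without TNFα, and -0.80 in KO and -0.09 in WT with it. With TNFα 4 of 12 were higher in KO macrophages, among them the inhibitor Socs1 (1.68) and the common gamma chain Il2rg (1.61), and in WT macrophages 3 of 13 were higher, with Il2rg at 2.00 and Socs1 at 1.60, and the adaptor Irs2 was lower at -1.18. Over all names, 4.43% were higher and 3.71% lower with TNFα in KO, and 4.4% and 5.98% in WT.

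Among 11 other scavenger receptors and haem handling genes, 3 were higher in KO macrophages: Stab2, the paralog of Stab1 (4.46, 22.1-fold), Cd163l1, the paralog of Cd163 (2.27), and haptoglobin Hp (1.35). With TNFα these were Stab2 (at least 101-fold), Cd163l1 (1.88) and the receptor Marco (1.07). In either pair 0 of the 11 were lower. Over all names, 4.08% were higher and 1.56% lower without TNFα, and 7.38% and 2.66% with it. Stab1, by contrast, was not called in either pair. Stab2 had scaled levels of 0.85 in KO and -3.62 in WT macrophages, and of 2.72 in KO and 3.78 in WT neutrophils. In neutrophils 1 of 8 was higher in KO, Hp (1.30), and 3 were lower, Hmox1 (-1.48), Cd68 (-1.11) and Stab2 (-1.06). Over all names, 5.02% were higher and 4.74% lower in that pair. With TNFα Hp was higher by 2.80 in KO and 3.48 in WT, and Cd36 was lower (-1.44 in KO and -1.20 in WT). Of the EGR family and its corepressors, 0 of 3 were called between genotypes in macrophages in either condition, near the shares over all names for so short a list. Egr1 differed by -0.09 without TNFα, and Egr3 was at least 2.44-fold higher in KO neutrophils.

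**Figure D5:**
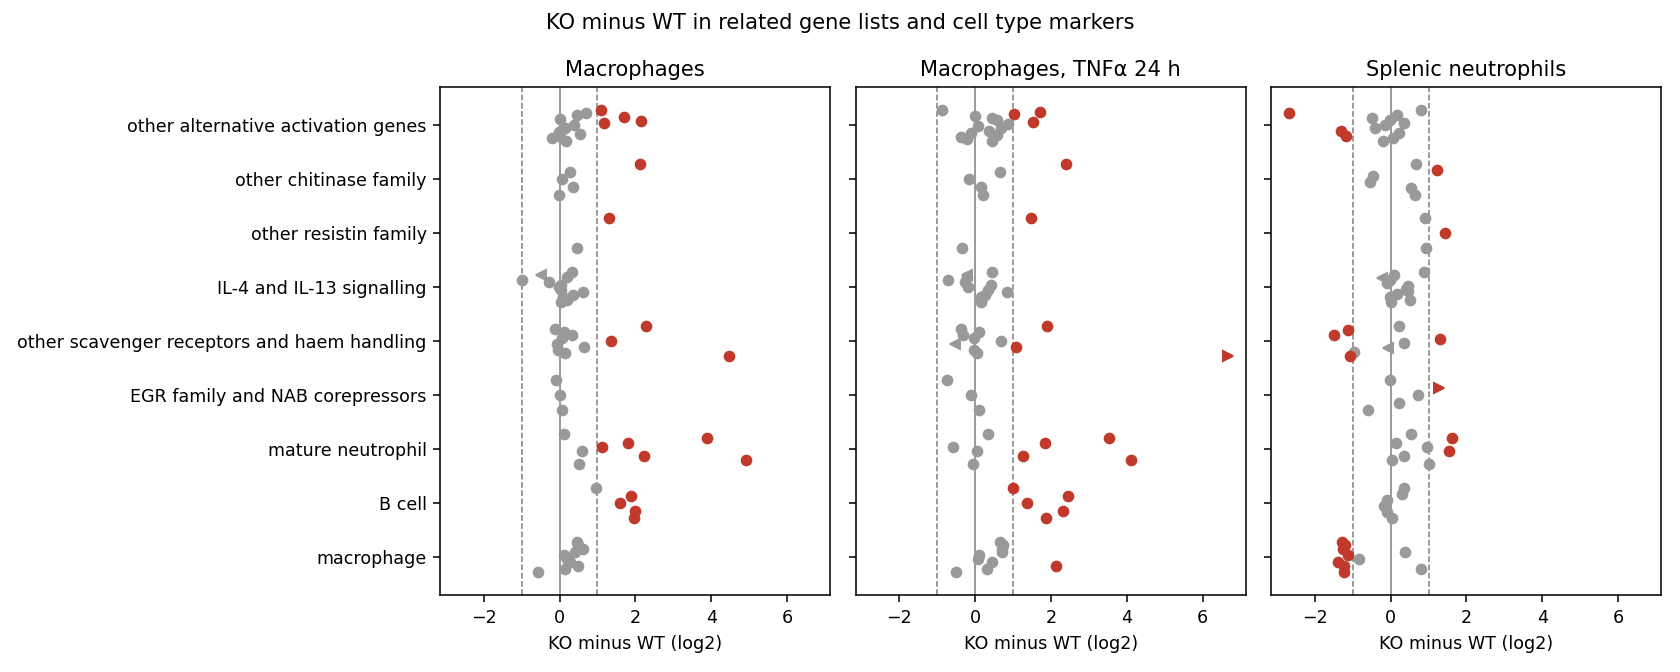
KO minus WT differences (log2, horizontal axis) of the genes of 6 related lists and 3 marker lists in macrophages, TNFα-treated macrophages and splenic neutrophils. Each point is 1 gene, red where it reached 2-fold and grey otherwise, and triangles are bounds. The rows of mature neutrophil and B cell markers lie mostly right of 0 on the macrophage arrays, and most macrophage markers lie left of -1 on the neutrophil arrays.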

How the data were processed

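Total RNA was labelled with Cy3 and hybridised in 1 colour, 1 sample per array. Per the file headers, the authors' deposited processed intensity was background-subtracted, detrended within the array and given surrogate values for dim spots; the submitters' processing notes name Agilent Feature Extraction 10.7.3.1. No normalization between arrays was recorded. The 6 arrays lay on 1 slide, so no slide could be tested as a batch. Of 62976 spots, 59305 were gene spots, and 101 to 121 per array marked as outliers were left out. Repeated spots of a probe were averaged. Over probes with at least 5 spots, their median SD was 0.06 to 0.07 on the log2 scale. Between 57.6% and 63.0% of gene spots were well above background. The number of arrays limits the precision.

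Values were log2 of that intensity minus each array's 75th percentile over gene probes, computed in Python 3.11.15 with pandas 2.3.3. The 2 normalization alternatives used limma 3.58.1 in R 4.3.3, with a normexp offset of 50. Where a name had several probes (11173 names), the brightest on average stood for the gene. Groups came from the labels, and 8 comparisons were made.

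The members and lists were chosen with earlier results of these data known. Named were all members, from each list up to 2 genes with the largest increase and 2 with the largest decrease past the rule in a comparison, and for each member its up to 3 nearest profiles. Beyond the rule, Irf4, Alox15, Ccl17, Pparg, Hp, Marco, Cd68, Stab2 in neutrophils, Mrc1, Stat6, Il4, Il13, Retnlg, Egr1, Chit1 and the marker genes are named with counts or as context, chosen after their values were seen. Alternatives were normexp, quantile normalization, the median of detected probes as scale, 2 filters on dim probes and the median over a gene's probes.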

Additional observations from a re-analysis of the deposited data

Results flagged for a closer look

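Chi3l1 differed between the genotypes in its TNFα response, with a log2 difference of 3.27 in KO macrophages and -0.18 in WT macrophages. The WT value was smaller than its technical error of 0.21, so no move was measured there. The difference between genotypes was not tested, since each group had 1 array.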

How the results depend on the processing

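Of 313 values recomputed under 6 alternatives for 53 main values, 306 kept their side of the 2-fold threshold, 6 fell short of it and 1 reached it. Of the values past 2-fold, 0 passed it in the opposite direction. Some differences short of 2-fold changed sign. Il4ra between genotypes under TNFα went from -0.44 to 0.04 with the median over its probes. Chi3l3 for TNFα in KO went from 0.08 to -0.15 with quantile normalization. Counts of members were judged by whether they stayed within 1.5 times. Cd163 fell short with normexp in 4 comparisons, at 0.75 and 0.52 between genotypes, -0.13 for TNFα in KO and 0.87 between KO neutrophils and KO macrophages, and at 0.98 in the last with quantile normalization. Quantile normalization also moved Egr2 under TNFα in WT to 0.91 and Il4ra between KO neutrophils and KO macrophages to 1.01. With it 1 member was called for TNFα in WT macrophages, against 2, and requiring probes well above background on both arrays left 3 called between WT neutrophils and WT macrophages, against 5, because bounds were dropped. That filter gave no value for 5 differences that rest on bounds. No paired analysis was possible because each group had 1 array. Signals near background limit Cd163 in macrophages and Retnla in neutrophils.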
